A study of Mus musculus with 16 samples.

Results

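BMAL1 intervals in mouse liver whose nearest gene is a zinc finger gene of the Zfp or Zbtb naming series were examined in chromatin immunoprecipitation and sequencing data of 8 BMAL1 libraries. The members were taken by name alone: an interval of the authors' merged table belonged when the symbol of its nearest gene began with Zfp or Zbtb followed by a digit, at any distance from the transcription start site (TSS). This gave 73 of the 7043 merged intervals, nearest to 65 genes. The Zbtb names accounted for 17 intervals at 15 genes and the Zfp names for 56 intervals at 50 genes. The name does not describe one protein class. It takes in 3 genes of the RNA-binding Zfp36 family (6 intervals) and 1 antisense transcript, Zfp652os.

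The livers came from C57bl6 mice of 8 to 16 weeks, housed under 12 h of light and 12 h of dark and, from the first week of the paradigm, fed a diet with 42% of calories from fat. The groups were male misaligned, male control, female misaligned and female control, each at ZT0 and at ZT12 (hours after lights on), and all carried the same diet. Each of these 8 groups had 1 BMAL1 library from liver pooled over 3 to 4 mice, so there is no replicate error for any pair. The schedule of the misalignment is not described in the labels.

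Proteins with C2H2 zinc fingers form the largest group of DNA-binding factors in mammals. Many Zfp proteins carry a KRAB domain, which recruits the corepressor TRIM28 and heterochromatin enzymes to transposable elements, and their genes sit in clusters that have expanded by duplication. ZBTB proteins join the zinc fingers to a BTB domain that forms dimers and binds corepressors, and several direct cell fate in blood and metabolism. BMAL1 binds DNA with CLOCK at E-boxes, of which CACGTG is the canonical form.

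The promoter of Zfp292, the gene with the highest -log10 q of the group (the negative log10 of the peak caller's adjusted p), is shown first because it holds 2 canonical E-boxes under the peaks. The window runs from 250 bases before to 50 bases after the RefSeq TSS (GRCm38.p6, chr4:34882899-34883198, minus strand, printed 5′ to 3′ in the direction of transcription). Capitals mark CACGTG, which reads the same on both strands, and CACGTT on either strand (AACGTG as printed).

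Zfp292: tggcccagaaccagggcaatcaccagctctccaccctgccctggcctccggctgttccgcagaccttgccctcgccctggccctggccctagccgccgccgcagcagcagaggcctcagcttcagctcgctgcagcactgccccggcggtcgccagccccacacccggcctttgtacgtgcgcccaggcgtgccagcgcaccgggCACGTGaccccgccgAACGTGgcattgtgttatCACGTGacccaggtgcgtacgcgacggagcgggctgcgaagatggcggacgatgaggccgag

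The first CACGTG began at base 206 of the window and the second at base 239, with 27 bases between them. The AACGTG between them began at base 221, so 9 bases separate it from the first copy and 12 from the second. Of all 32851 RefSeq promoter windows, 195 (0.594%) hold 2 or more CACGTG, and of the 2322 windows that an interval meets, 90 (3.88%) do. The match is a description of the letters, not a measured binding site.

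How deeply each library was sequenced is unknown. Peak lists held between 141 peaks (female control ZT12) and 5542 peaks (male misaligned ZT12), and the lowest local background, which scales with depth and fragment length, lay between 4.25 and 6.16 fragments. All 10 clock genes used to check the BMAL1 label (Per1, Per2, Cry1, Cry2, Nr1d1, Nr1d2, Dbp, Tef, Ciart and Bhlhe40) were nearest to an interval in every library. RNA was not measured in these libraries, so cell markers could be read only as peaks. Of 7 hepatocyte genes 5 and of 4 endothelial genes 1 were nearest to an interval, against 16.4% of all protein-coding genes. Each of these marker genes was called in male misaligned ZT12, the library with most member calls, which called 78.7% of all intervals. Of the marker genes, 1 hepatocyte gene was also called in female misaligned ZT0 and none in the other 6 libraries. The part of this in the member calls was not tested. The stellate, Kupffer and myeloid, cholangiocyte and lymphocyte lists had 0 of 4, 5, 4 and 4. None of the 73 intervals lay in a stretch of high local background (at least 5 times the lowest of its list), against 0.951% of all intervals, and the highest ratio among them was 3.36.

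Most of the zinc finger intervals were called in a single library. Of the 73, 55 (75.3%) were called in 1 library, against 78.5% of all intervals, and 18 (24.7%) in at least 2, against 21.5%. The highest number was 5 libraries, at Zfp91. At least 4 libraries called 5 intervals (6.85%, against 4.81% of all), which lay at Zfp91, Zfp292, Zfp36, Zfp36l2 and Zbtb14. Of the peaks in the 73 intervals, 94 came from misaligned and 10 from control libraries, and the misaligned share was 90.4% for members and 89.7% for all peaks. Misaligned libraries alone called 64 intervals (87.7%, against 90.0% of all), at least 1 library of each treatment called 5 (6.85%, against 7.34%), and control libraries alone called 4 (5.48%, against 2.68%). The single library of male misaligned ZT12 accounted for 35 (47.9%, against 58.3%). The median fold enrichment (summit over local background, by the authors' peak caller) was 3.81 for the member peaks and 3.77 for all 9986 peaks, and the median -log10 q was 5.79 and 5.94.

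**Figure D1:**
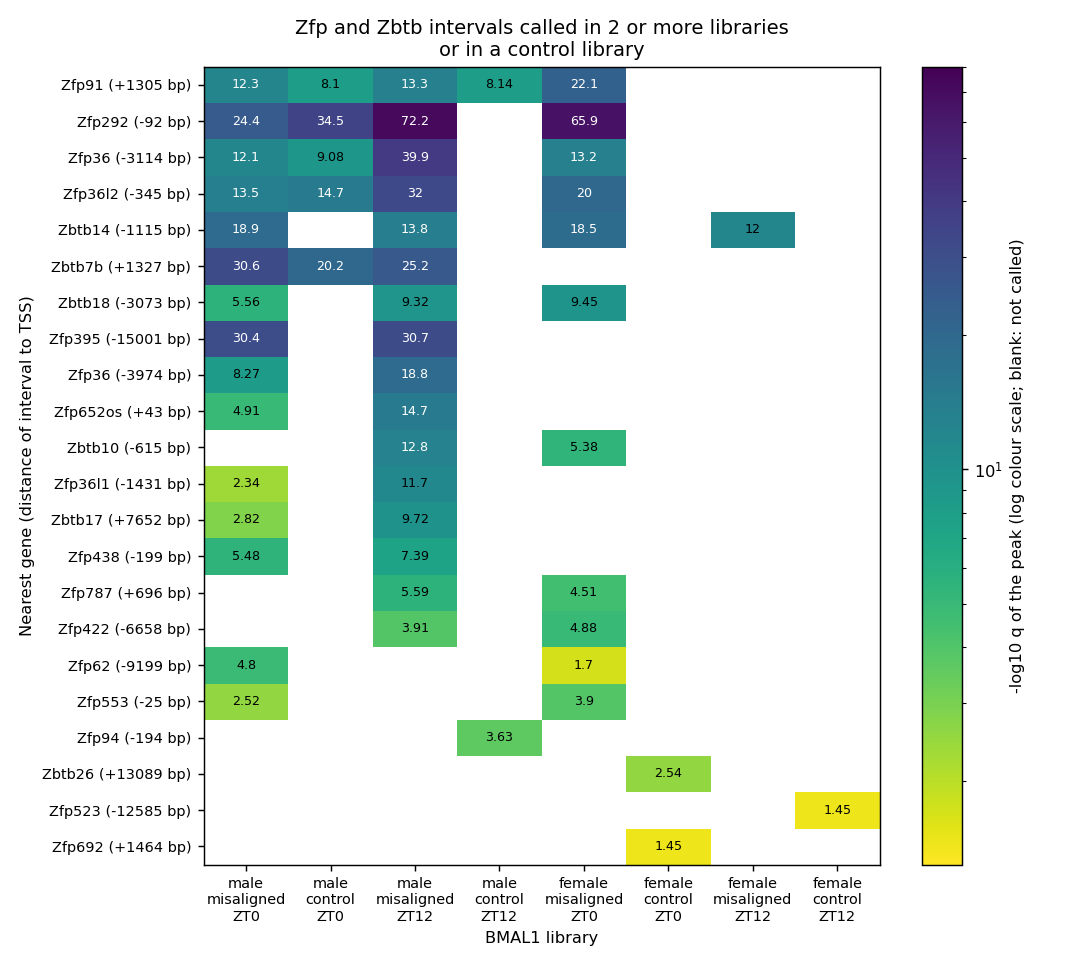
Heat map of -log10 q, as the authors' peak caller gave it, for the 22 Zfp and Zbtb intervals called in 2 or more libraries or in a control library. Rows are intervals with their distance to the TSS, columns are the 8 BMAL1 libraries, and blank cells were not called. Zfp292 holds the highest value (72.2), and the 4 intervals at Zfp94, Zbtb26, Zfp523 and Zfp692 were called in a control library alone.

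Zfp292, which encodes a very large zinc finger protein whose rat counterpart binds the growth hormone promoter, carried the BMAL1 interval with the highest fold enrichment and -log10 q of the group. The interval lay over its promoter, on chromosome 4 from 34882708 to 34883336 (GRCm38), 92 bp upstream of the annotated TSS. Male misaligned ZT0 had 56 fragments at the summit (solved from the fold enrichment and p of the peak caller, 95% Poisson interval 42.3 to 72.7, counting error only) and a fold enrichment of 6.58, and male control ZT0 had 74 fragments (58.1 to 92.9) and a fold enrichment of 7.13. Male misaligned ZT12 had 91 fragments (73.3 to 112) at a fold enrichment of 14.5. Female misaligned ZT0 had 112 fragments (92.2 to 135) at a fold enrichment of 9.44. The site was thus called at ZT0 in both treatments in males, and in the misaligned but not the control library of the male ZT12 and female ZT0 pairs.

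Within the lists, its -log10 q was 24.4 in male misaligned ZT0 (rank 126 of 1864), 34.5 in male control ZT0 (36 of 373), 72.2 in male misaligned ZT12 (87 of 5542) and 65.9 in female misaligned ZT0 (27 of 1330). It ranked highest of all zinc finger peaks in 3 of these lists, and in male misaligned ZT0 that place was held by Zbtb7b (rank 89). Zfp292 was not called in male control ZT12, female control ZT0, female misaligned ZT12 or female control ZT12. The lowest fragment numbers that were called in those 4 lists were 16, 17, 22 and 20 in that order. Because depth is unknown, an absent call is a value under that list's threshold and not a measured absence of binding.

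In the printed window, the 4 summits lay within 6 bp of each other, 54 to 60 bp upstream of the RefSeq TSS. Measured to the middle of the first copy, the summit was 12 bp away in male misaligned ZT0, 16 bp in male control ZT0, 18 bp in male misaligned ZT12 and 16 bp in female misaligned ZT0.

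**Figure D2:**
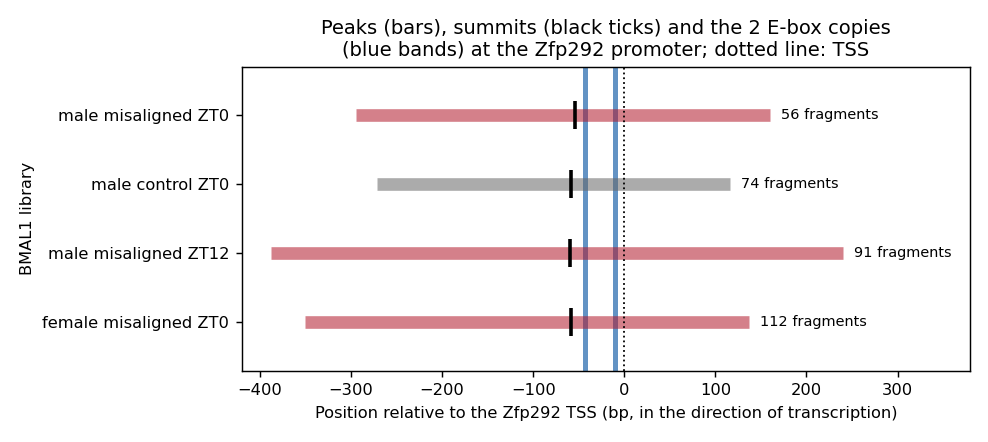
Peaks called at the Zfp292 promoter, drawn in bp from the TSS in the direction of transcription, for the 4 libraries that called the site. Bars span the called peak (red misaligned, grey control), black ticks mark summits, blue bands the 2 CACGTG copies. All 4 summits sit between -60 and -54 bp, beside the upstream copy.

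The Zfp36 family, whose proteins bind AU-rich elements in messenger RNA and promote its decay, had intervals at 3 of its 4 RefSeq protein-coding genes. At Zfp36, which encodes tristetraprolin, a repressor of inflammatory mRNAs, the main interval lay 3114 bp upstream on chromosome 7 from 28382131 to 28382608 in intergenic sequence. At ZT0 in males its -log10 q was 12.1 in the misaligned and 9.08 in the control library, with 47 and 36 fragments. The local background was 10.4 and 7.51 in that order, and the fold enrichment was 4.22 in the misaligned and 4.35 in the control library. The -log10 q was 39.9 in male misaligned ZT12 (78 fragments, fold enrichment 7.73) and 13.2 in female misaligned ZT0 (53 fragments). A second interval followed further upstream (28383018 to 28383440, -3974 bp) and was called in male misaligned ZT0 (8.27) and male misaligned ZT12 (18.8).

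Zfp36l2, a family member needed for blood progenitors and oocytes, had an interval at its promoter on chromosome 17 from 84187837 to 84188747 (-345 bp). The fold enrichment was 4.58 in male misaligned ZT0, 4.89 in male control ZT0, 5.60 in male misaligned ZT12 and 5.72 in female misaligned ZT0, and the control value lay within the range of the misaligned ones. The fragments at the summit were 47 in male misaligned ZT0, 48 in male control ZT0, 84 in male misaligned ZT12 and 53 in female misaligned ZT0, with summits within 22 bp. The other 2 Zfp36l2 intervals, at 4276 bp and 73708 bp, were called in male misaligned ZT0 alone (-log10 q 7.59 and 7.13). Zfp36l1, which in mouse liver also destabilises the mRNA of the bile acid enzyme Cyp7a1, had 1 interval at -1431 bp (chromosome 12, 80114217 to 80114642) in male misaligned ZT0 (2.34) and male misaligned ZT12 (11.7). Zfp36, Zfp36l2 and Zfp292 shared their set of 4 libraries: male ZT0 in both treatments, male misaligned ZT12 and female misaligned ZT0.

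Zfp91, which encodes an atypical ubiquitin ligase of NF-kappa-B signalling, was the most widely called member. Its interval lay in an intron on chromosome 19 from 12794548 to 12795094, 1305 bp from the TSS. In males, fragments at the summit were 34 in misaligned and 38 in control mice at ZT0, and 55 in misaligned and 31 in control mice at ZT12. The local background was 5.28 and 9.02 at ZT0, and 13.5 and 6.08 at ZT12, in the same order. Fold enrichment thus went the other way in both pairs, with 5.57 in misaligned and 3.89 in control at ZT0, and 3.87 and 4.52 at ZT12. Female misaligned ZT0 had 49 fragments and the highest fold enrichment, 6.80, against 3.87 to 5.57 in the 4 male libraries. All 4 male libraries called it and 1 of the 4 female libraries did. The 5 summits lay within 15 bp. Among the 73 it was the one called in both libraries of the male ZT12 pair.

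Zfp395, which encodes a factor that binds the huntingtin promoter in human cells, had a pair of distal intervals. The one at -15001 bp (chromosome 14, 65343181 to 65344169) had 55 fragments in male misaligned ZT0 and 55 in male misaligned ZT12, at a fold enrichment of 8.57 and 8.49. The other, in an intron at 16691 bp, was called in male misaligned ZT12 alone (fold enrichment 6.48, -log10 q 24.6). Zfp872, at 8483 bp, was also called in that library alone, with a fold enrichment of 7.65 and -log10 q 25.7, the highest of the 55 single-library members.

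Among the BTB genes, 5 had an interval in at least 2 libraries, and 1 of these was called in a control library. Zbtb7b encodes ThPOK, the factor that directs thymocytes to the CD4 lineage. Its interval on chromosome 3 from 89391828 to 89392274, 1327 bp from the TSS, had a fold enrichment of 6.69 in misaligned ZT0, 6.60 in control ZT0 and 4.97 in misaligned ZT12, all male. At ZT0 it had 69 fragments over a local background of 9.47 in the misaligned library, and 47 over 6.28 in the control library. The RefSeq start of Gm15417 lies nearer to it (187 bp). A second Zbtb7b interval at -470 bp was called in male misaligned ZT12 alone (-log10 q 11.6).

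Zbtb14, a BTB repressor first described at the Myc promoter, was called in all 4 misaligned libraries and in none of the 4 control libraries. Misaligned libraries alone called 90.0% of all intervals, but that share includes the 78.5% of intervals called in 1 library. It is therefore not a like baseline for an interval of 4 libraries. Of all intervals, 1517 were called in at least 2 libraries, and 517 were called by at least 1 library of each treatment. The Zbtb14 interval spanned 958 bp on chromosome 17 from 69382247 to 69383204, at -1115 bp by the authors' annotation and -450 bp from the nearest RefSeq start. The fold enrichment was 5.54 in male misaligned ZT0, 4.83 in male misaligned ZT12, 6.63 in the female library of ZT0 and 5.10 in that of ZT12, with 52, 43, 42 and 38 fragments in that order. It was the only zinc finger interval called in female misaligned ZT12. The interval meets 2 overlapping RefSeq windows of Zbtb14, and neither holds CACGTG or CACGTT. The one whose start site is nearer to the summits (chr17:69382925-69383224, plus strand) is printed for that reason, and so has no capitals. The 4 summits lay 212 to 287 bp upstream of that window's start site, so some fall outside the letters shown.

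Zbtb14: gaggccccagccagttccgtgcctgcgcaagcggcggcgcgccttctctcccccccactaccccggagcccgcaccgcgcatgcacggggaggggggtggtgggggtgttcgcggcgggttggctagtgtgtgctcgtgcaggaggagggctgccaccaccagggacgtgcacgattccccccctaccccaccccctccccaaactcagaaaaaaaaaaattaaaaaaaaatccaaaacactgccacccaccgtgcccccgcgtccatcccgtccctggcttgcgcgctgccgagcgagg

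Zbtb18, which encodes a repressor that acts in neuronal development, was called at -3073 bp (chromosome 1, 177441537 to 177442194, -486 bp from the nearest RefSeq start). Its -log10 q was 5.56 in male misaligned ZT0, 9.32 in male misaligned ZT12 and 9.45 in female misaligned ZT0. Zbtb10, a repressor of Sp factor genes, had 12.8 in male misaligned ZT12 and 5.38 in female misaligned ZT0 at -615 bp. Zbtb17, which encodes the MYC partner MIZ-1, had 2.82 in male misaligned ZT0 and 9.72 in male misaligned ZT12 in an intron at 7652 bp. None of Zbtb14, Zbtb18, Zbtb10 and Zbtb17 was called in a control library. Neither were 90.0% of all intervals, a share that includes the many called in 1 library. Of the 1517 intervals called in at least 2 libraries, 517 had a call in each treatment.

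The other 12 Zbtb intervals, at 11 genes with the second of Zbtb7b included, were called in 1 library each, with -log10 q from 1.89 to 11.6. Zbtb16, which encodes PLZF of innate-like lymphocytes, had 2 intronic intervals, 90796 and 103912 bp into the gene, in male misaligned ZT12 (6.57 and 9.21), and the more distant one is the farthest of all 73. Zbtb7a (LRF, a repressor of fetal globin in human cells) had 9.51 at 1156 bp and Zbtb43 had 7.00 at -3620 bp, both in male misaligned ZT12. The same library called Zbtb25 (2.89), Zbtb44 (2.58) and Zbtb24, mutated in a human immunodeficiency with unstable centromeres (1.89, -16073 bp). Male misaligned ZT0 called Zbtb21 (5.92), Zbtb6 (5.67) and Zbtb5, a repressor of Cdkn1a in human cells (4.44). Female control ZT0 called Zbtb26 (2.54).

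Further Zfp names recurred in 2 misaligned libraries and no control library. Of all intervals 90.0% had no control call, but that share includes the many called in 1 library. Of the 1517 called in at least 2 libraries, 517 had a call in each treatment. Zfp652os (antisense, 43 bp) had -log10 q 4.91 in male misaligned ZT0 and 14.7 in male misaligned ZT12, and the authors' annotation gives the interval to the promoter of another gene. Zfp438 (-199 bp) had 5.48 in male misaligned ZT0 and 7.39 in male misaligned ZT12. Zfp787 (696 bp) had 5.59 in male misaligned ZT12 and 4.51 in female misaligned ZT0. Zfp422 (-6658 bp), in an exon of another gene, had 3.91 in male misaligned ZT12 and 4.88 in female misaligned ZT0. Zfp62 (4.80 and 1.70) and Zfp553 (2.52 and 3.90) were called in male misaligned ZT0 and female misaligned ZT0, in that order. Every one of these calls had a lower -log10 q than the Zfp292 call of the same library.

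The median -log10 q was 3.91 for the single-library members and 13.8 for the best call of the recurrent ones, which takes the highest of several lists. Male misaligned ZT12 alone called 35 intervals at 33 genes (median -log10 q 3.76), male misaligned ZT0 alone 13 at 12 genes (median 4.44) and female misaligned ZT0 alone 3 (4.19 to 5.97). Of the 55, 14 were below 3. Members with a known role in this group include Zfp143, an activator of small nuclear RNA promoters (6.35, 26500 bp, male misaligned ZT12), and Zfp568, a KRAB factor that silences a placental Igf2 transcript (3.81, -4048 bp, male misaligned ZT0). Those 2 were picked for their known roles after their values were seen.

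Control libraries alone called 4 intervals, with -log10 q of at most 3.63: Zfp94 in male control ZT12 (3.63), Zbtb26 and Zfp692 in female control ZT0 (2.54 and 1.45) and Zfp523 in female control ZT12 (1.45, rank 140 of 141).

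Whether misalignment changed BMAL1 binding at these genes was addressed by 4 pairs of the same sex and time. In males at ZT0, 28 members were called in the misaligned library (38.4%, against 26.4% of all intervals) and 5 in the control library (6.85%, against 5.21%). At male ZT12 there were 51 (69.9%, against 78.7%) in the misaligned library and 2 (2.74%, against 4.06%) in the control library. In females at ZT0 there were 14 (19.2%, against 18.8%) in the misaligned library and 2 (2.74%, against 3.17%) in the control library. At female ZT12 each library called 1 (1.37%, against 3.08% in the misaligned and 1.96% in the control library). The misaligned to control ratio was 5.60 for members and 5.07 for all intervals at male ZT0, 25.5 and 19.4 at male ZT12, 7.00 and 5.93 at female ZT0, and 1.00 and 1.57 at female ZT12.

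**Figure D3:**
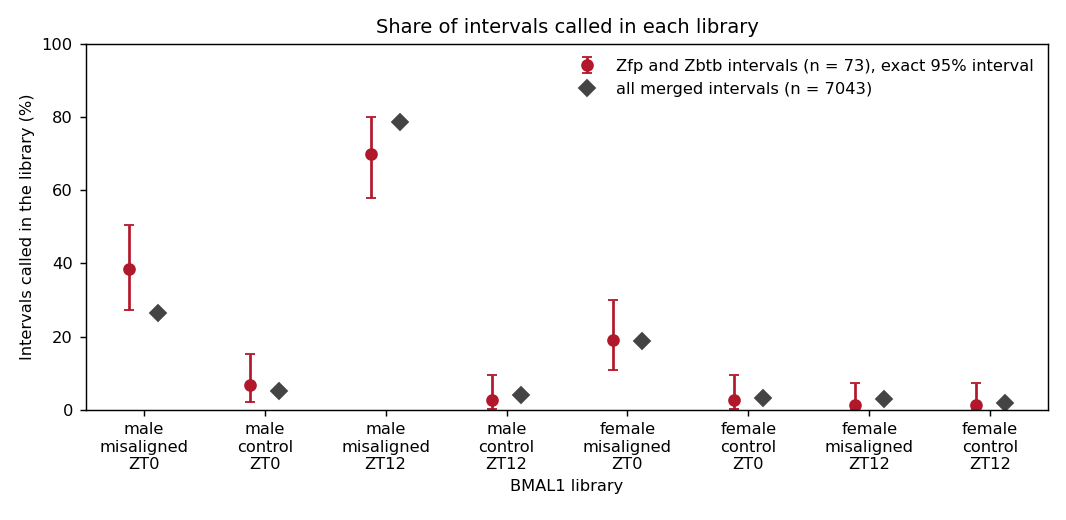
Percentage of intervals called in each BMAL1 library, for the 73 Zfp and Zbtb intervals (red, exact 95% interval for counting error) and for all 7043 merged intervals (grey diamonds). The share of all intervals falls inside the members' interval in every library except male misaligned ZT0, where it is 26.4% against 38.4% (27.2 to 50.5) for members. This is not a test: the members are not replicates of a group, and the libraries were read without correction for their number. The shares are also linked between libraries, because an interval is listed only if some library called it.

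As a share of each library's own calls, the zinc finger intervals in males were 1.51% in misaligned ZT0 and 1.36% in control ZT0, and 0.921% in misaligned ZT12 and 0.699% in control ZT12. In females they were 1.06% in misaligned ZT0 and 0.897% in control ZT0, and 0.461% in misaligned ZT12 and 0.725% in control ZT12. The misaligned minus control difference averaged 0.0654 percentage points, with values of 0.143, 0.221, 0.161 and -0.264 in the 4 pairs. This average depended on the settings: it was -0.00648 without intervals of high background, 0.499 at -log10 q of at least 3, 0.485 within 1 kb and 0.420 within 10 kb of the TSS, and 0.349 in lists of equal length. The exact Clopper-Pearson 95% intervals of the 2 shares overlapped in every pair, for example 1.00% to 2.17% in misaligned and 0.444% to 3.15% in control males at ZT0. With 5, 2, 2 and 1 members in the control lists, these intervals are wide. Their overlap therefore cannot decide whether the shares differ. A sign-flip test over 4 pairs cannot reach 0.05, so no p is given for the member counts.

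The 5 members that both treatments shared at male ZT0 were each called in at least 3 libraries. At male ZT0, 23 members were called in the misaligned list alone (31.5%, against 22.6% of all intervals) and none in the control list alone (against 1.42%). Both lists called 5 (6.85%, against 3.79%), at Zfp91, Zfp292, Zfp36, Zfp36l2 and Zbtb7b. At male ZT12, 50 were called in the misaligned list alone (68.5%, against 75.5%), 1 in the control list alone (1.37%, against 0.895%) and 1 in both (1.37%, against 3.17%). At female ZT0, 14 were called in the misaligned list alone (19.2%, against 17.6%), 2 in the control list alone (2.74%, against 1.95%) and none in both (against 1.22%). At female ZT12 it was 1 in the misaligned list alone (1.37%, against 2.09%), 1 in the control list alone (1.37%, against 0.965%) and none in both (against 0.994%). With so few control calls in females (2 and 1), no difference between the sexes could be measured.

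The sexes were compared in 4 pairs matched for treatment and time, and females had fewer members in each. There were 14 in female and 28 in male misaligned ZT0, 1 in female and 51 in male misaligned ZT12, 2 in female and 5 in male control ZT0, and 1 in female and 2 in male control ZT12. The female to male ratios, in that order, were 0.500, 0.0196, 0.400 and 0.500 for members, and 0.711, 0.0392, 0.608 and 0.483 for all intervals. In the share of the list the female minus male difference was -0.447, -0.460, -0.466 and 0.0253 percentage points. At least 1 female library called 17 members (23.3%, against 22.0% of all intervals), and 11 were called in both sexes (15.1%, against 14.2%). In misaligned mice at ZT0, 8 members were called in both sexes (11.0%, against 7.78% of all intervals), 6 in females alone (8.22%, against 11.0%) and 20 in males alone (27.4%, against 18.6%).

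Between times, the count of members moved both ways. With the deposited calls, the members' share of each list was lower at ZT12 in all 4 pairs. Male misaligned libraries called 51 at ZT12 and 28 at ZT0, male control libraries 2 and 5, female misaligned libraries 1 and 14, and female control libraries 1 and 2. The difference in share, ZT12 minus ZT0, was -0.585 percentage points in male misaligned, -0.663 in male control, -0.597 in female misaligned and -0.172 in female control mice. Single shares have wide intervals, such as 0.0117% to 2.54% in female misaligned ZT12. Members called at ZT0 and in no ZT12 library numbered 20 (27.4%, against 19.8% of all intervals). In male misaligned mice 13 members were called at both times (17.8%, against 14.0% of all intervals), 38 at ZT12 alone (52.1%, against 64.7%) and 15 at ZT0 alone (20.5%, against 12.4%).

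The median distance to the TSS was 1327 bp for zinc finger intervals, 6967 bp for all intervals and 4564 bp for those nearest to a protein-coding gene. Nearly all, 72 (98.6%), had a protein-coding nearest gene, against 67.2% of all intervals. Of the 73, 32 (43.8%, exact 95% interval 32.2 to 55.9) lay within 1 kb of the authors' TSS, against 28.7% of all intervals and 35.6% of the 4735 intervals nearest to a protein-coding gene, so the counting interval holds the second share and not the first. Within 10 kb it was 54 (74.0%), against 57.3% and 62.9%. The authors' annotation placed 35 of the 73 in promoter-TSS (47.9%, against 33.6% of all), 17 in introns (23.3%, against 33.5%), 12 in intergenic sequence (16.4%, against 24.3%), 7 in exons (9.59%, against 4.88%) and 2 at transcription ends (2.74%, against 3.69%). Of the 35 in promoter-TSS, 30 lay at the promoter of the nearest gene itself and 5 at that of another gene, those of Zbtb25 and Zfp652os among them. By library, the share within 1 kb was 22 of 51 in male misaligned ZT12 (43.1%, against 28.0% of all intervals there), 11 of 28 in male misaligned ZT0 (39.3%, against 34.3%), 7 of 14 in female misaligned ZT0 (against 45.6%) and 3 of 9 in the control libraries together (33.3%, against 36.4%). Among intervals within 1 kb of a protein-coding gene, 6 of 31 members recurred in at least 2 libraries (19.4%, against 30.9%).

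**Figure D4:**
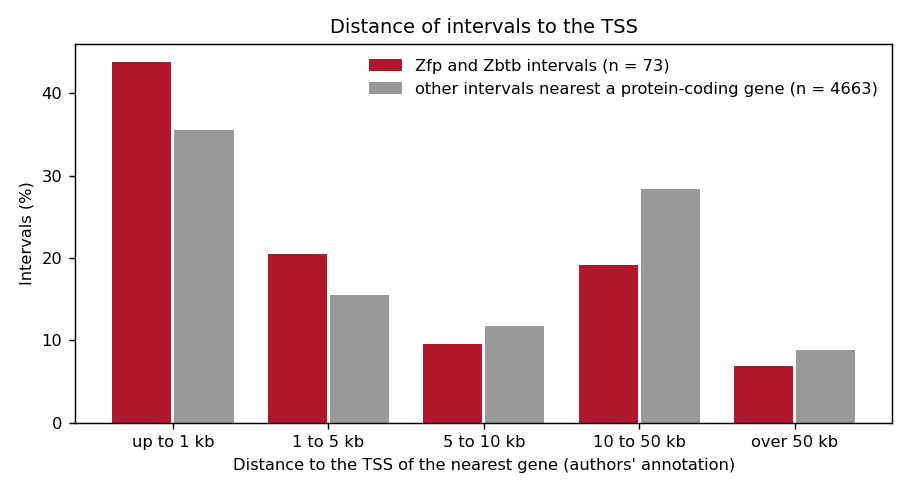
Distance to the TSS of the nearest gene, as the percentage of intervals in 5 distance ranges, for the 73 Zfp and Zbtb intervals (red) and the 4663 other intervals nearest to a protein-coding gene (grey). Within 1 kb lie 43.8% of the members and 35.5% of the others, and between 10 and 50 kb 19.2% and 28.4%.

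The distance depends on which transcript is taken as the start. For 58 of the 73 intervals the gene has a RefSeq promoter entry on the same build. Of these, 26 were within 1 kb of the authors' TSS and 35 within 1 kb of a RefSeq TSS of the same gene. The 9 that moved inside were at Zbtb14, Zbtb18, Zbtb43, Zbtb44, Zfp318, Zfp523, Zfp59, Zfp62 and Zfp72. Zbtb44, for example, was at -22676 bp by the authors' table and at -24 bp by RefSeq. At 5 intervals the RefSeq start of another gene was nearer and within 1 kb. These were both Zbtb7b intervals (Gm15417), Zbtb26 (Zbtb6), Zbtb6 (Rabgap1) and Zfp319 (Usb1), so distance alone does not assign the peak to the zinc finger gene.

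Counted over genes, the group as a whole was near the share of the genome, with 36.6% of Zbtb and 12.7% of other Zfp genes nearest to an interval. Of 438 RefSeq protein-coding genes with a Zfp or Zbtb name, 68 (15.5%) were nearest to an interval, against 16.4% of 21896 protein-coding genes. The count of 68 includes 4 genes that the authors' table lists under names without Zfp, and leaves out the antisense transcript. Of the 41 Zbtb genes 15 (36.6%, exact 95% interval 22.1 to 53.1) were nearest to an interval, of the 4 Zfp36 family genes 3, and of the 393 other Zfp genes 50 (12.7%, 9.59 to 16.4). In at least 2 libraries the shares were 12.2% of Zbtb genes (5), 2.29% of other Zfp genes (9) and 4.47% of all protein-coding genes. Genes are not replicates, gene length and expression were not matched, and no test was made of these shares.

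**Figure D5:**
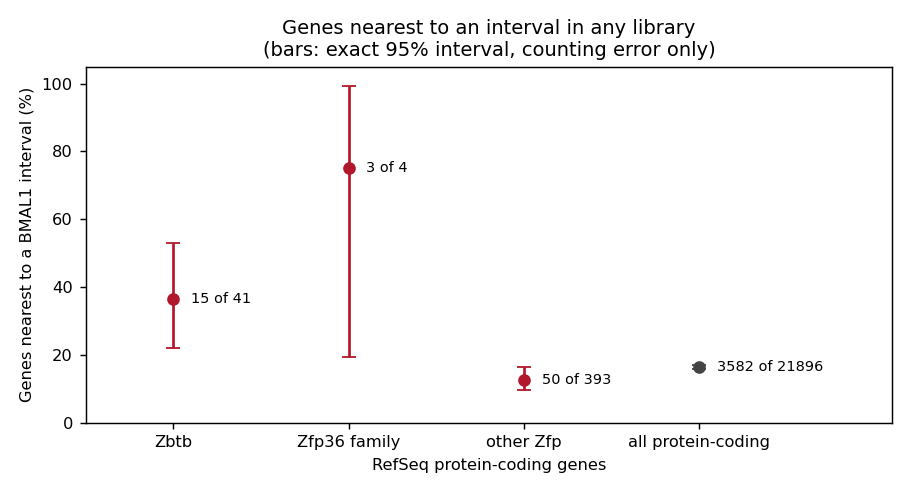
Percentage of RefSeq protein-coding genes that are nearest to a BMAL1 interval in any library, by name class, with the exact 95% interval for counting error. The 15 of 41 Zbtb genes (36.6%) and 3 of 4 Zfp36 family genes lie above the 3582 of 21896 genes of the genome (16.4%), and the 50 of 393 other Zfp genes (12.7%) lie below it.

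Zfp genes inside and outside of gene clusters were nearest to an interval at close shares. With a cluster defined as at least 3 other Zfp or Zbtb genes within 500 kb, 24 of 191 clustered genes (12.6%) and 26 of 202 other genes (12.9%) were nearest to an interval. In at least 2 libraries it was 2 clustered genes (1.05%) and 7 others (3.47%), and in a control library 1 and 5. Chromosome 7, which carries 95 of the 438 genes, held 17 member intervals at 16 genes, 23.3% of the members against 6.62% of all intervals. Of its 95 genes 17 (17.9%) were nearest to an interval, against 15.5% of the 438.

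Most promoters that an interval met held no canonical E-box in the window, among zinc finger genes and among all genes. CACGTG was present in 2349 of 32851 RefSeq windows of 300 bases (7.15%) and in 539 of the 2322 windows met by an interval (23.2%). It was present in 286 of the 1486 windows met by an interval of 1 library (19.2%). For intervals of at least 2 libraries it was 253 of the 836 windows (30.3%). Of the 34 windows of member genes met by their own interval, 5 (14.7%) held it, at Zfp292, Zbtb21, Zbtb25 and Zfp933, where Zbtb25 counts with 2 overlapping windows around the same letters. Zfp and Zbtb windows that no interval met held it in 25 of 413 (6.05%). For CACGTT on either strand the shares were 1 of 34 (2.94%) of these member windows, 9.13% of all windows met by an interval and 4.68% of all windows. No test was made of these shares, and a window without the letters says nothing of E-boxes elsewhere in the interval.

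The other 3 member promoters with a CACGTG are printed to set them beside Zfp292. Each was called in 1 library with few fragments: Zbtb21 (chr16:97962573-97962872, minus strand) with 27 in male misaligned ZT0, Zbtb25 (chr12:76369511-76369810, minus strand) with 28 in male misaligned ZT12, and Zfp933 (chr4:147848369-147848668, minus strand) with 20 in male misaligned ZT0. The authors' annotation gives the Zbtb25 interval, 33 bp from that gene's TSS, to the promoter of another gene. Capitals mark CACGTG, and CACGTT on either strand where present.

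Zbtb21: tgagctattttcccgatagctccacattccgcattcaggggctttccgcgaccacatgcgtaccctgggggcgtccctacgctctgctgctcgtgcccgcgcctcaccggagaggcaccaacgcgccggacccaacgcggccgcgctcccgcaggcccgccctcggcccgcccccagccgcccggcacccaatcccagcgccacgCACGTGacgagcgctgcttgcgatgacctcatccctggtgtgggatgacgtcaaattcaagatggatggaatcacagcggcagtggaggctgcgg

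Zbtb25: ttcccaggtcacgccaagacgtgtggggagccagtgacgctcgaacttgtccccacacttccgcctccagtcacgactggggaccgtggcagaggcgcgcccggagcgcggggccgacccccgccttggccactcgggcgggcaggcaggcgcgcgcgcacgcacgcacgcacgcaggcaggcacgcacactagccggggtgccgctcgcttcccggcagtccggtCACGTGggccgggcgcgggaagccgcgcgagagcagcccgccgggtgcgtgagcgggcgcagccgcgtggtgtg

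Zfp933: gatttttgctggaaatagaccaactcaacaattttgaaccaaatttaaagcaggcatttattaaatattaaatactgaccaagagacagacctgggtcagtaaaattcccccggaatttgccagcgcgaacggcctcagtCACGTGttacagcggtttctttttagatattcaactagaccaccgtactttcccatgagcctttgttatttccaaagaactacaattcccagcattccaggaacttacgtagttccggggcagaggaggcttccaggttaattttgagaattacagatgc

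The summit lay 12 bp from the middle of the CACGTG at Zbtb25, 62 bp at Zbtb21 and 152 bp at Zfp933. Each of these windows holds 1 copy, where Zfp292 holds 2. Of all 456 Zfp and Zbtb windows, 3 (0.658%) hold 2 or more copies, and only that of Zfp292 was met by an interval. Whether the number of copies goes with peak strength was not tested. A further 9 windows, of 8 Zfp or Zbtb genes, were met by an interval that the authors gave to another gene, and these intervals are not among the 73. One of the 8 was Zbtb49, whose window holds CACGTG 44 bp from a summit of male misaligned ZT12 (interval nearest to Lyar).

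Genes of the proteins that zinc finger factors work with were looked up in the same table. Of 14 genes of KRAB corepression and heterochromatin, among them Trim28, Setdb1 and Cbx5, 0 were nearest to an interval, against the 16.4% of all protein-coding genes. Among BTB corepressor and ligase partner genes, the deacetylases Hdac2 (-17421 bp, best -log10 q 14.8) and Hdac3 (19311 bp, 16.0) were nearest to an interval of 2 libraries, and Cul3, Gps2, Tbl1x and Tbl1xr1 to one of a single library. Of 6 BTB zinc finger genes of other names, Bcl6 (3.10) and Gzf1 (2.78) were nearest to an interval, in male misaligned ZT12. Of 28 genes with other zinc finger names 3 were (Zfpm1, Zkscan14 and Zscan25). Zfpm1, the partner of GATA factors, had 26.9 at -3082 bp in male misaligned ZT12 and a second interval at -26770 bp in 2 libraries (best 14.4, female misaligned ZT0). Of 15 deadenylase partner genes of the ZFP36 proteins 5 were (Btg2, Cnot10, Cnot4, Cnot8 and Tob1), each in 1 library. Genes of these lists called in a single library are named after their values were seen.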

How the data were processed

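BMAL1 was measured in 8 liver libraries; 8 IgG libraries were not analysed here. Per the submitters' processing notes, BWA 0.7.17-r1188, MACS2 2.2.7.1 and GRCm38 were used. The q threshold and the role of the IgG libraries are not given in the sources used here. Each deposited peak list holds a score, which by its values is -log10 q times 10 without decimals. It also holds fold enrichment (a ratio of summit to local background, with 1 added to both by the values), -log10 p and the authors' -log10 q. In the deposited merged table, each interval has calls by library, the nearest gene and its distance to 1 transcript. The calls matched the lists in all 8 libraries.

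Fragments at summits and local background were solved from fold enrichment and -log10 p (relative tolerance 0.0001), for 99.1% to 100% of peaks per list. Such values depend on depth and were compared within a list, or side by side. Intervals are exact Clopper-Pearson or Poisson at 95% and cover counting error only. RefSeq promoters (GRCm38.p6) had entries for 54 of the 65 genes. Python 3.11.15, scipy 1.17.1 and pandas 2.3.3 were used, and steps were tested on simulated data. Negative distances are upstream. Named are genes in at least 2 libraries or in a control library, all Zbtb genes, the Zfp36 family and the 10 strongest intervals. Other single-library genes were named after their values were seen, for a known role, a start site or a motif. The members and lists were chosen with earlier results of these data known. The planned sign-flip test over 4 pairs cannot reach 0.05, and its p is not reported for member counts. Calls, chromosomes, distance, background, list length, overlap, name rule and the pairs used were varied. The count for 1 partner gene list is not reported here.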

Additional observations from a re-analysis of the deposited data

How the results depend on the processing

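No paired analysis was possible because the groups share only replicate 1, so no replicate block could be fitted; the pairs used are matched for sex, time or treatment. The counts below are in the order male misaligned ZT0, male control ZT0, male misaligned ZT12, male control ZT12, female misaligned ZT0, female control ZT0, female misaligned ZT12 and female control ZT12, where the deposited calls gave 28, 5, 51, 2, 14, 2, 1 and 1 members. Within 1 kb of the TSS they were 11, 2, 22, 1, 7, 0, 0 and 0, and the share of male misaligned ZT12 was 1.42%. In lists of equal length (the 141 strongest peaks) they were 3, 3, 1, 0, 1, 0, 1 and 1. At -log10 q of at least 3 both female control libraries had 0 (0%). Within 10 kb female control ZT0 had 1 and female control ZT12 0 (0%). The mean ZT12 minus ZT0 difference in member count was 1.5, and it turned to -0.500 within 10 kb, -1 in lists of equal length and -5.67 without the male misaligned pair, which decides its sign. Without intervals of high background the mean misaligned minus control difference in share turned to -0.00648 percentage points (0.0654 with them). It was 0.0585 on chromosomes 1 to 19, X and Y, and 0.0135 to 0.175 when 1 of the 4 pairs was left out. Under 4 other alternatives it was 0.349 to 0.499, and each of those 4 left at least 1 control library with 0 members. The share within 1 kb was 43.8%, became 64.4% at 5 kb and, chosen after seeing the data, 60.3% by the nearest RefSeq TSS over 58 intervals. Without the 35 intervals of male misaligned ZT12 alone it was 42.1%. The name rule without the Zfp36 family gave 67 intervals at 62 genes, and a wider one 82 at 73. The mean female minus male differences and the mean ZT12 minus ZT0 difference in share kept their sign under all 10 alternatives run for each. Those of the 10 that left out 1 pair could not have changed the sign, given the values of the 4 pairs. The sign of single pairs was not always kept. In lists of equal length the share in female misaligned mice was 0.725% at ZT12 and 0.719% at ZT0. In female control mice it was 0.725% at ZT12 and 0% at ZT0. Unknown depth and 1 library per group limit every comparison.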
